A study of Homo sapiens with 2 samples.

Results

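The genes described here are 6 genes of the interferon response, IFIH1, STAT2, IFITM2, IFITM3, MX1 and NLRC5, in SBC5 cells before and after selection for resistance to cisplatin. They were taken from the deposited table by name, and every locus carrying one of these names was kept, which gave 8 loci of the 19217 in the table and 6 of the 12405 genes compared. The names were chosen with their values in this comparison already known, so the difference between the libraries is given for them as a description. SBC5 is an established line of small cell lung cancer, and cisplatin is a platinum drug that crosslinks DNA. The parental group is SBC5 without selection, and the resistant group, labelled CPr, came from the same line after stepwise culture in 1, 2, 4 and then 20 µg/ml cisplatin. Neither group carried an added allele or agent that the labels name, and the labels do not say whether the resistant cells were 1 clone or many. Polyadenylated RNA of 1 library per group was measured as FPKM, fragments scaled to locus length and library size. There were therefore no replicates, no test was made, and each difference describes these 2 libraries. In bulk RNA, fewer cells with a transcript and less of it per cell cannot be told apart.

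Interferons are secreted proteins that warn cells of viral infection. Sensors such as MDA5, the product of IFIH1, bind double-stranded RNA in the cytoplasm and lead to interferon production. Interferon then acts through its receptors and Janus kinases, and a factor that contains STAT2 and IRF9 binds the interferon-stimulated response element in promoters. Genes with this element include MX1, a GTPase that blocks viral replication, and the IFITM genes, whose membrane proteins hinder viral entry. NLRC5 is a member of the NLR family that drives genes of MHC class I antigen presentation, which display peptides to T cells.

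The promoters of 4 of the 6 genes were found in the RefSeq table of build GRCh38.p14, and 3 of them hold the element. It was searched on both strands as a pair of GAAA copies with any 2 bases between them, from 250 bases before to 50 bases after each start site. The windows of 30 bases that hold it in IFIH1, IFITM3 and MX1 are shown to give the letters that matched. Capitals mark the matches, and sequences are written 5′ to 3′ on the strand of the gene.
IFIH1, chr2:162318686-162318715, minus strand: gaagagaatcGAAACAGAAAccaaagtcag
IFIH1, chr2:162318821-162318850, minus strand: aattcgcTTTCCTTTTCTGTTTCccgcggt
IFITM3, chr11:320884-320913, minus strand: gGAAAAGGAAActgttgaGAAACCGAAAct
MX1, first start, chr21:41420559-41420588, plus strand: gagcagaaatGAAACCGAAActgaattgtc
MX1, the third start, chr21:41431844-41431873, plus strand: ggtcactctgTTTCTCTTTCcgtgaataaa

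IFIH1 had 3 matches, at -21 and, overlapping each other, at -159 and -153 from the start site, and IFITM3 had 2, at -52 and -35. MX1 had 1 match at 12 bases into the transcript of its first start and 1 at -196 of the third start, and none at its other listed start. The STAT2 promoter held no match in this window. Of 35116 promoters of the same length, 3.57% held the element. Counted by gene, with any promoter, 4.38% of all genes held it. Among the measured interferon-stimulated genes other than those described, 27 of 59 (45.8%) did. The gamma-activated site, searched as TTCNNNGAA, was found at the third start of MX1 alone among the 4 genes, overlapping the element there, and in 7.66% of all promoters. A match describes the letters and does not show that a factor binds there.

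Of the 6 genes, 4 were at least 2-fold higher in the resistant library, 1 was at least 2-fold lower and 1 lay between. Each ratio is on the log2(FPKM + 1) scale, resistant minus parental, and 2-fold is a log2 ratio of 1 or -1. Over all 12405 genes the share past this limit was 3.28% on the higher side and 2.7% on the lower side, 5.98% in all. After scaling to equal sums the balance turned, from 407 higher and 335 lower genes to 357 and 380. Since the genes were picked on this contrast, nothing is read from their count. A gene was compared if it reached 1 FPKM in either library, and IFIH1, MX1 and NLRC5 did so in the resistant library only.

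**Figure D1:**
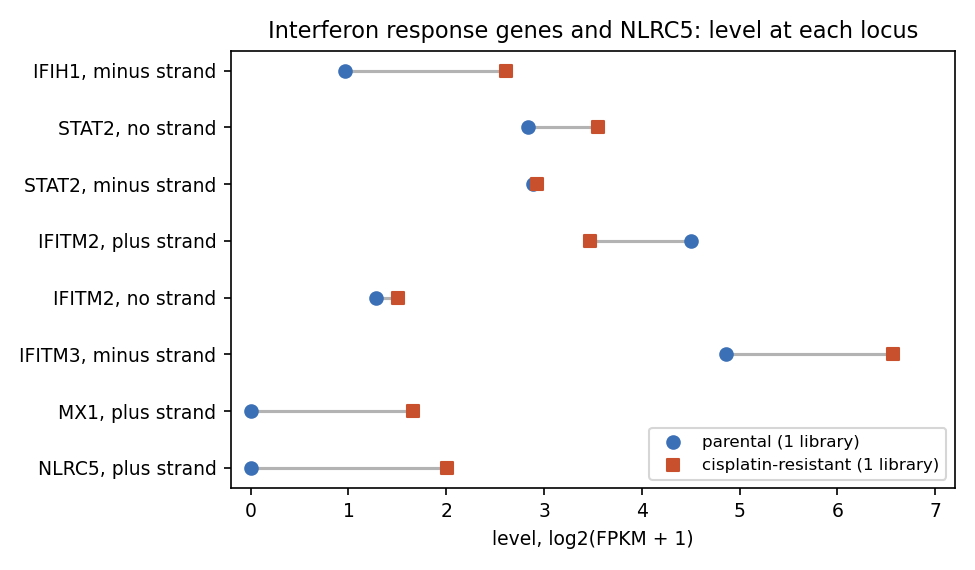
Level of each locus of the 6 genes as log2(FPKM + 1), in the parental library (circles) and the cisplatin-resistant library (squares), with the part of the table from which the strand was inferred. IFIH1, IFITM3, MX1 and NLRC5 lie further right in the resistant library, the plus-strand IFITM2 locus lies further left, and the STAT2 loci differ from each other, with almost no gap at the minus-strand locus.

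IFIH1 (ENSG00000115267.6) encodes the RNA sensor MDA5 and occupies positions 162267079 to 162318703 of chromosome 2, minus strand. The parental library had 0.947 FPKM and the resistant library 5.11 FPKM, a log2 ratio of 1.65, and ranked 132 from the highest of all genes. The resistant library had the higher value, and the parental one lay just under the 1 FPKM limit. Both values are low, and with a pseudocount of 5 FPKM the log2 ratio was 0.76, within 2-fold.

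Of the 25 listed sensors and adaptors, 18 were measured, 2 were at least 2-fold higher and none was lower. Without IFIH1 the higher count was 1 of 17 (5.88%), beside 3.28% of all genes. This gene was DHX58, encoding LGP2, the relative of MDA5 that lacks its signalling domain. It had 2.68 and 6.42 FPKM (log2 ratio 1.01), just past the limit. RIGI, listed as DDX58 and encoding RIG-I, the other sensor of this family, had 1.65 and 1.83 FPKM (0.10). Of the 3 related sensors RIGI was thus nearly equal in the libraries. The adaptor gene MAVS, through which MDA5 and RIG-I signal, shared a joined locus with AP5S1 at 11.5 and 13.6 FPKM (0.23). The list median was 0.19, and 0.15 without IFIH1, beside -0.04 for all genes compared.

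The interferon ligand genes were not analysed here. Of 9 receptor and Janus kinase genes, 7 were measured, none of them past 2-fold, and their median was -0.05. The receptor chain IFNAR1 had 10.1 and 10.5 FPKM (0.05), and IFNAR2, its partner, had 39.0 and 26.9 FPKM (-0.52), the lowest ratio of the list. The kinases JAK1 (11.0 and 12.4 FPKM, 0.16) and TYK2 (19.4 and 18.6 FPKM, -0.05) were close to equal in the libraries.

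STAT2 (ENSG00000170581.13), a transcription factor of the type I interferon response, occupies positions 56341597 to 56360155 of chromosome 12, minus strand. Its 2 loci gave different pictures. At the minus-strand locus the parental library had 6.39 FPKM and the resistant library 6.61 FPKM (log2 ratio 0.04). The other, in the part of the table without a strand, had 6.15 and 10.7 FPKM (0.71) and stood for the gene because its mean was higher. The ratio of these 2 values equals 7/4 once the worth of 1 read in the libraries, 0.996, is divided out, within a tolerance of 2e-05. Ratios of small whole numbers can come from few reads, but the number of reads is not known. At the locus on the annotated strand STAT2 was close to equal in the 2 libraries.

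All 9 measured STAT and IRF genes of 16 listed lay within 2-fold, and 7 of them were above 0, with a median of 0.21, or 0.19 without STAT2. IRF9, the partner of STAT2 in that factor, had 4.03 and 5.85 FPKM (0.45). IRF1 had 2.50 and 4.01 FPKM (0.52), and IRF3, which acts below MAVS, had 40.7 and 45.0 FPKM (0.14). IRF7 was not analysed here. The 14 measured of 16 negative regulators also lay within 2-fold (median 0.12). Among them USP18, which restrains receptor signalling, had 14.4 and 16.3 FPKM (0.17), and the phosphatase gene PTPN6 was highest, with 10.5 and 16.8 FPKM (0.63). A second PTPN6 locus, without a strand, had 3.04 and 15.2 FPKM (2.00), past the limit.

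IFITM3 was higher and IFITM2 lower in the resistant library. IFITM3 (ENSG00000142089.15; chromosome 11, 319669 to 327537, minus strand) had 28.0 FPKM without selection and 93.9 FPKM with it, a log2 ratio of 1.71 and a linear ratio of 3.35. IFITM2 (ENSG00000185201.16; chromosome 11, 307631 to 315272, plus strand) had 21.7 and 10.04 FPKM, a log2 ratio of -1.04, just past the limit. The 2 genes were within 1.29-fold of each other in parental cells, and IFITM3 was 9.35 times as high as IFITM2 in resistant cells. Their sum was 49.7 FPKM in the parental library against 103.96 FPKM in the resistant one. A second IFITM2 locus, without a strand, had 1.43 and 1.85 FPKM (0.23). With a pseudocount of 5 FPKM IFITM3 had 1.58, still past 2-fold, and IFITM2 had -0.83, within it, and with its loci summed IFITM2 had -0.91. IFITM1 was not analysed here.

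The coding sequences of these neighbours are nearly the same, so a read can fit both. In 1 GENCODE release 29 transcript of each, the coding sequence has 396 bases for IFITM2 and 399 for IFITM3, and 372 of 396 aligned bases (93.9%) were identical. The first 90 coding bases are shown because they hold many of the differences, with capitals for bases that differ or are inserted.
IFITM2, chr11:308193-308282, plus strand: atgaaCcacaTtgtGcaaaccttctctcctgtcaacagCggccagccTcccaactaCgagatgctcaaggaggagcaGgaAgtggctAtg
IFITM3, chr11:320724-320813, minus strand: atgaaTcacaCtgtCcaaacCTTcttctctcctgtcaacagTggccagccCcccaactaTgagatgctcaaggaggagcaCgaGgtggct
The longest run without a difference had 99 bases, positions 235 to 333 of the IFITM2 coding sequence, and a read inside it fits both genes.
Shared run: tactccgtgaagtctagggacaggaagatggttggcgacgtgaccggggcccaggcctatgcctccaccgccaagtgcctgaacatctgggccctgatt

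Over all annotated IFITM3 transcripts, 14.0% of different 50-base windows also occurred in an IFITM2 transcript, and 1.56% of 100-base windows did. The read length and the treatment of reads that fit both genes were not found in the sources used here, so the split between IFITM2 and IFITM3 is uncertain, and the part of shared reads in their ratios was not tested.

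MX1 (ENSG00000157601.13; chromosome 21, 41420304 to 41459214, plus strand) was listed at 0 FPKM in the parental library and had 2.16 FPKM in the resistant one. Its relative MX2, whose start lies 58.4 kb away, had 21.9 and 25.5 FPKM (0.21), and 0.213% of the 50-base windows of MX1 transcripts, and 0 of the 75-base windows, occurred in an MX2 transcript. So MX2 was detected well in both libraries and lay within 2-fold, while MX1 was detected in the resistant library alone, at a low level. No fold is given against a value of 0. On the scale with a pseudocount of 1 the log2 ratio of MX1 was 1.66, and it was 0.52 with a pseudocount of 5 FPKM and 4.50 with 0.1 FPKM.

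NLRC5 (ENSG00000140853.15; chromosome 16, 56989485 to 57083531, plus strand) was likewise at 0 FPKM without selection, against 3.02 FPKM in the resistant library. Its log2 ratio was 2.01 with a pseudocount of 1, 0.68 with 5 FPKM and 4.96 with 0.1 FPKM. MX1 and NLRC5 were 2 of 18 genes, 0.145% of those compared, that were listed at 0 in parental cells and reached 1 FPKM in resistant cells. In order of resistant FPKM NLRC5 was the 8th and MX1 the 11th of the 18. Another 8 genes were listed at 0 in resistant cells and reached 1 FPKM in parental cells. The number of reads behind a 0 is not known. Of all loci, 78 were listed at 0 in the parental library and 48 in the resistant one. None of the 6 housekeeping loci checked was among them, which cannot tell what a 0 means for a gene of low level.

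**Figure D2:**
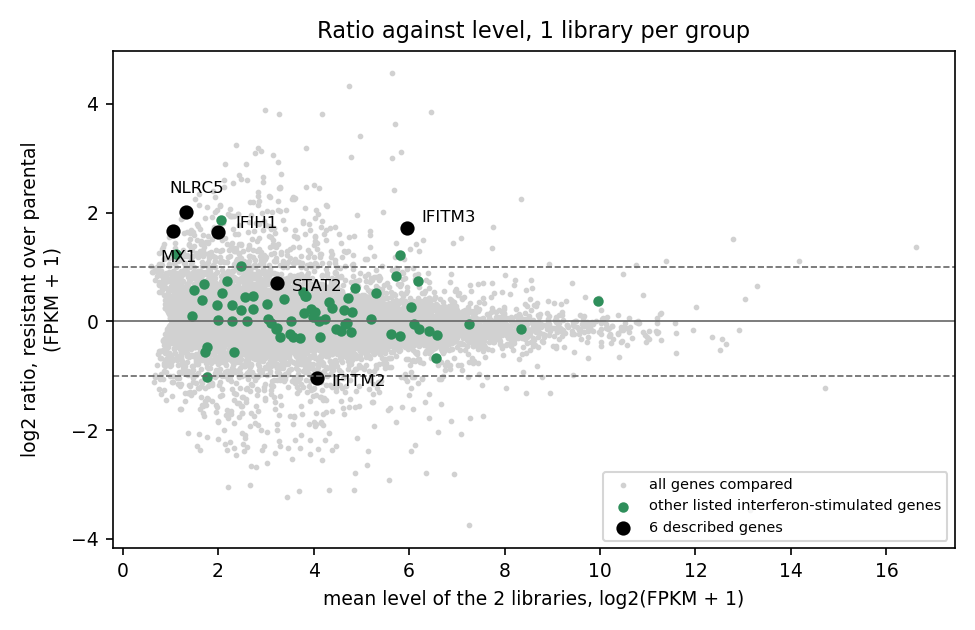
Log2 ratio of resistant over parental FPKM plus 1 against the mean level of the 2 libraries, for all 12405 genes compared (grey), the interferon-stimulated list (green) and the 6 described genes (black), with dashed lines at 2-fold. IFITM3 stands above most genes of its level, whereas IFIH1, MX1 and NLRC5 lie at low levels where ratios spread more widely.

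Genes of like level give a scale for these ratios. At the level of IFITM3 95% of 620 genes had log2 ratios between -0.87 and 0.64, and IFITM3 (1.71) lay outside this range. At the level of IFIH1 the range was -1.17 to 1.69, which holds its 1.65. At that of MX1 and NLRC5 it was -1.16 to 1.35, below their 1.66 and 2.01, which rest on a parental value listed at 0. A parental 0 gives the highest ratio possible at a given mean, so nothing is read from their place. IFITM2 (-1.04) lay just inside its range of -1.08 to 1.13, and STAT2 (0.71) was inside its own, -0.96 to 1.46.

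Genes served by NLRC5 were examined in the MHC class I list. Of 21 listed genes 10 were measured, 8 were above 0, 1 was at least 2-fold higher and none was lower, and the median was 0.27. Of all genes compared 44.4% were above 0 and 3.28% at least 2-fold higher, with a median of -0.04. TAPBPL, a peptide editor of class I molecules, had 1.03 and 3.32 FPKM (1.09). ERAP2, which trims peptides, had 1.38 and 3.52 FPKM (0.93), just inside the limit. HLA-C, which encodes a class I heavy chain, had 21.7 and 29.5 FPKM (0.43) at a locus without a strand, and reads of similar class I genes can be split between them. The proteasome activator genes PSME1 (31.7 and 45.9 FPKM, 0.52) and PSME2 (59.2 and 71.4 FPKM, 0.27) were also above 0. The 2 below 0 were the abundant CALR (351 and 349 FPKM, -0.01) and PDIA3 (122 and 106 FPKM, -0.20). HLA-B, B2M, TAP1 and PSMB9 were not analysed here. Most measured class I genes were thus above 0, and those over 20 FPKM lay within 2-fold.

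Of 14 listed class II genes 4 were measured, and 3 were at least 2-fold higher, beside 3.28% of all genes. The invariant chain gene CD74 had 0.299 and 2.05 FPKM (1.23) and HLA-DQB1 had 0.364 and 1.86 FPKM (1.07), both low, and both were compared only because they reached 1 FPKM in the resistant library. IFI30, a lysosomal thiol reductase, was abundant, with 32.7 and 77.4 FPKM (1.22). The protease gene CTSS went the other way, with 33.1 and 21.8 FPKM (-0.58). CIITA, the NLR factor of class II genes, was not analysed here.

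NLRC5 acts on promoters together with the RFX, NFY and CREB factors. Of the 9 measured genes of this complex NLRC5 alone passed 2-fold, and without it 7 of 8 were below 0 (median -0.08). RFX5 had 21.5 and 19.7 FPKM (-0.13) at its minus-strand locus, and RFXAP had 13.5 and 9.91 FPKM (-0.41). In the NLR family 7 of 22 listed genes were measured, and NLRP6 also passed 2-fold, with 3.14 and 9.40 FPKM (1.33). That locus lies on the minus strand, opposite to the annotated gene, and the NLRP6 locus of the plus strand had 2.59 and 5.91 FPKM (0.95).

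The wider list of interferon-stimulated genes, which includes the 6, had 76 measured of 115 listed genes. In it 8 were at least 2-fold higher, 2 at least 2-fold lower and 66 between, and 48 of 76 (63.2%) were above 0 beside 44.4% of all genes compared. Without the 6 described genes, 4 of 70 (5.71%) were higher, beside 3.28% of all genes, and 1 was lower, with 43 above 0 and a median of 0.09, beside -0.04 for all genes. Of the 4, LAMP3 and CD74 reached 1 FPKM in the resistant library only, and DHX58 (1.01) was just past the limit. Nothing is read from their share. LAMP3, a lysosomal membrane protein, had 0.785 and 5.54 FPKM (1.87), the second highest ratio after NLRC5. ISG15, the ubiquitin-like modifier, had 53.4 and 89.6 FPKM (0.74), LGALS3BP, a secreted glycoprotein, had 37.04 and 67.01 FPKM (0.84), and OAS3, an oligoadenylate synthetase, had 2.39 and 4.68 FPKM (0.75), and 1.51 and 5.46 FPKM (1.36) at a second locus without a strand. The well expressed BST2, a tether of budding virus (154 and 149 FPKM, -0.05), and IFI35 (22.3 and 20.2 FPKM, -0.14) were nearly equal. The cytokine gene CSF1 had a log2 ratio of -1.03, from 3.59 FPKM in the parental library. The list median of 0.17 was 0.10 with loci placed on a strand and 0.09 after scaling to equal sums. With a pseudocount of 5 FPKM 2 of its genes were higher and none lower.

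**Figure D3:**
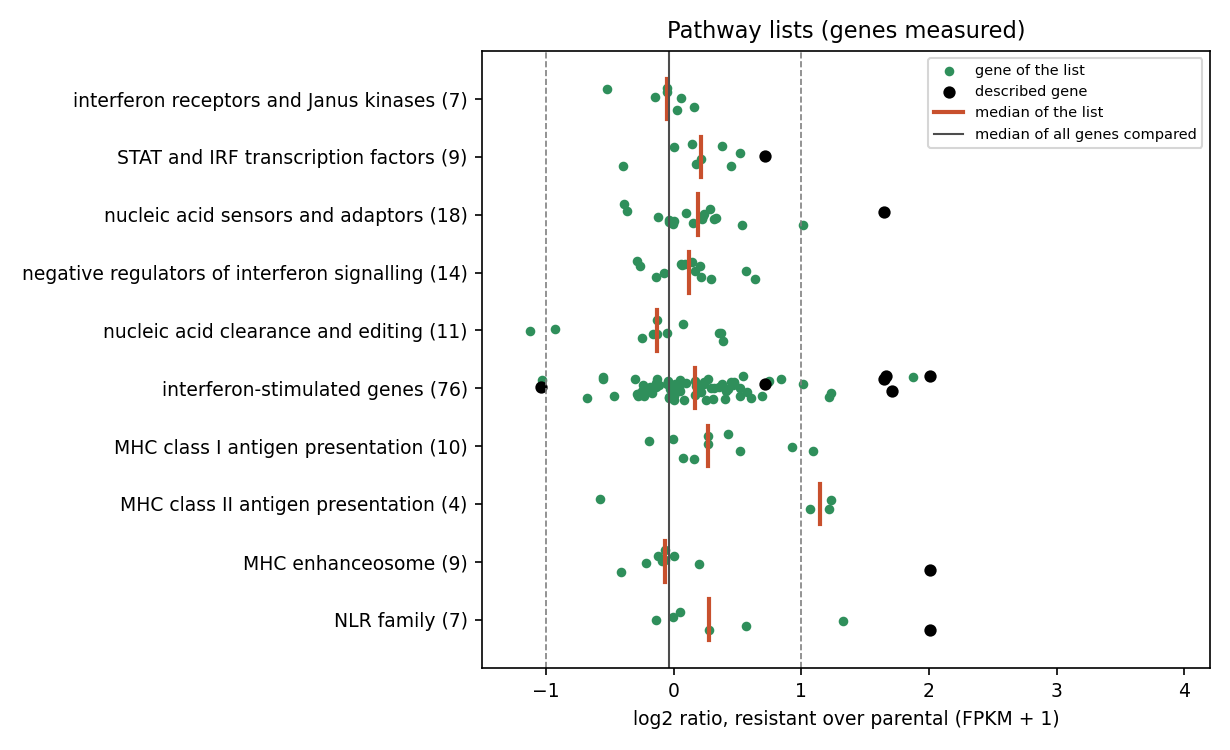
Log2 ratio of each measured gene in 10 lists, with the described genes in black, the list median in red, the median of all genes compared as a solid line and 2-fold as dashed lines; points are spread vertically for sight only. IFIH1, IFITM3, MX1 and NLRC5 lie right of the 2-fold line, as LAMP3 and a few other listed genes do, IFITM2 lies left of the opposite line, and the receptor list lies at the median of all genes.

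Promoters with the element were then set against the ratios. RefSeq promoters were found for 63 of the 76 genes, and 30 of them (47.6%) held the element in at least 1 promoter, beside 4.38% of all genes. The 30 had a median log2 ratio of 0.20, and the 33 without it had 0.08. With the described genes left out, the medians were 0.05 for 27 genes and 0.07 for 32, and 0 and 2 genes were at least 2-fold higher. Above 0 were 17 of the 27 and 19 of the 32. LAMP3 and DHX58, also at least 2-fold higher, were not among the genes with a promoter found and entered neither group. Outside the described genes the 2 medians thus lay close together, and the part of the element in the ratios was not tested.

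Genes that clear or edit nucleic acids, which limit what sensors can find, had a median of -0.13 over 11 of 12 listed. XRN1, the cytoplasmic exonuclease that degrades decapped RNA, had 99.2 and 44.8 FPKM (-1.13), and it alone of the list passed 2-fold. ADAR, which edits double-stranded RNA, had 104 and 87.4 FPKM (-0.25). Of the 11 genes 4 were above 0, among them the DNase gene DNASE2 (25.0 and 32.8 FPKM, 0.38). SAMHD1, which breaks down deoxynucleotides (16.5 and 21.4 FPKM, 0.35), was another. The DNase gene TREX1 shared a joined locus with ATRIP at 6.23 and 8.33 FPKM (0.37), so this value is not that of TREX1 alone.

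The genes next to the described ones were read by annotated position. IFIH1 shares its start region with GCA, the gene of the calcium-binding protein grancalcin, which is read in the opposite direction. The RefSeq starts nearest each other lie 79 bases apart. GCA had 8.18 and 27.05 FPKM (1.61), beside 1.65 for IFIH1, and the IFIH1 match at -21 printed above also lies in a 300-base promoter of GCA, at -67 on the opposite strand. The overlapping IFIH1 pair lies in another GCA promoter, at -154 and -148. On the other side GCG, the glucagon gene, had 1.37 and 0.561 FPKM (-0.60), with its start 166 kb away. Past GCA, FIGN had 7.84 and 2.17 FPKM (-1.48), with its start 1417 kb from that of IFIH1. Both genes of the shared start region were thus higher in the resistant library, and the next measured gene on each side was lower.

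Around IFITM2 and IFITM3, ATHL1 (now PGGHG, encoding a glucosidase) had 36.02 and 92.3 FPKM (1.33), with its start 18.5 kb from that of IFITM2. B4GALNT4, a glycosyltransferase gene on the other side, had 39.2 and 57.7 FPKM (0.55), and PKP3, a desmosome gene, had 7.01 and 8.57 FPKM (0.26). IFITM2 was the only 1 of the 11 measured genes within 250 kb of IFITM3 that was at least 2-fold lower. ATHL1 was at least 2-fold higher, as was NLRP6 at its minus-strand locus, opposite to the annotated gene. The plus-strand NLRP6 locus (0.95) lay within 2-fold.

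**Figure D4:**
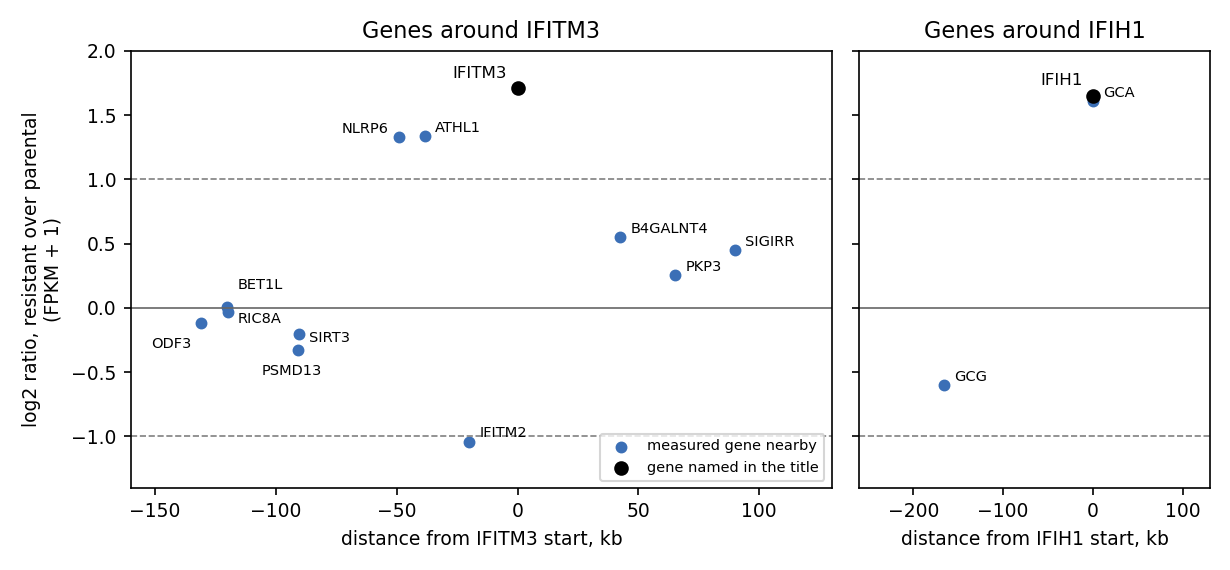
Log2 ratio of measured genes by distance of their annotated start from that of IFITM3 (left) and IFIH1 (right), in kb, with dashed lines at 2-fold. ATHL1, IFITM3 and NLRP6, the last shown by a locus on the strand opposite to the gene, lie above 2-fold. IFITM2, whose start is between those of ATHL1 and IFITM3, lies below the opposite line, and GCA coincides with IFIH1.

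No such company was seen at the other genes. The nearest measured neighbours of NLRC5 were HERPUD1 (43.3 and 49.98 FPKM, 0.20) and CPNE2 (28.1 and 26.5 FPKM, -0.08), and those of STAT2 were the joined CNPY2 and PAN2 locus (0.08) and TIMELESS (-0.09). Those of MX1 were MX2 and, 347 kb away, RIPK4 with 1.21 and 2.53 FPKM (0.68).

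The genes of similar mean level whose ratio was nearest are given for each, a likeness over 2 libraries only. They were EPHA5 (1.62) and MIR4492 (1.69) for IFIH1, PDGFRL and MANEAL for STAT2, MOXD1 (-1.04) and BCL11A (-1.05) for IFITM2, and CCDC102A (1.44) and ST8SIA6 (1.43) for IFITM3. For MX1 they were ATL1 (2.14 FPKM) and OLR1 (1.94 FPKM), and for NLRC5 UGT1A6 (3.04 FPKM) and LINC01446 (3.04 FPKM), all 4 listed at 0 in parental cells.

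Values summed to 1019555 FPKM for parental and 1081047 FPKM for resistant cells, and their depth is unknown because the table holds no counts. Of 12 neuroendocrine markers 6 were measured, among them UCHL1 (251 and 259 FPKM), DLL3 (19.3 and 18.9 FPKM) and SYP (8.56 and 8.62 FPKM), and SCG2 had 109 and 20.1 FPKM. Of markers of other cell types, 2 of 14 haematopoietic ones were measured (summed 28.8 and 17.3 FPKM), 1 of 6 of plasmacytoid dendritic cells (21.8 and 17.2 FPKM), 4 of 10 of fibroblasts (75.5 and 40.7 FPKM) and 3 of 6 of epithelial cells (13.4 and 18.1 FPKM). The lower fibroblast sum rested on PDGFRA (48.0 and 10.1 FPKM, -2.14), while COL3A1 (1.18 and 7.51 FPKM, 1.97) and COL1A1 (0.54) were higher. The epithelial CDH1, the E-cadherin gene, had 0.536 and 4.81 FPKM (1.92). No measured marker of these lists was listed at 0. Their part in the values of the 6 genes was not tested.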

How the data were processed

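Per the file headers, the deposited table gives FPKM per locus, with a column for each library. Columns were assigned from the sample descriptions, and 0 were unmatched. The labels' protocols name a strand-preserving kit for polyadenylated RNA. TopHat2 and hg38 are named per the submitters' processing notes. Which program and annotation made the values is not given in the sources used here.

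The members and lists were chosen with earlier results of these data known. Loci without a name (2919) or with a date for one (23) were excluded, and the locus with the highest mean stood for a name. Strand was inferred from the order of the loci, which fall into 3 parts per chromosome. Of 11773 loci in a plus or minus part with an annotated strand, 98.7% lay on it. Among 7591 low loci, 52.9% had ratios of whole numbers up to 20 times 0.996, against 0.481% with wrong factors. A read was thus worth nearly the same FPKM in both libraries, which does not give their depth. Positions came from GENCODE release 29, of the same build as hg38. A list's genes at or past 2-fold were named up to 4 by size, with the neighbours, genes of like pattern and a set of central pathway genes at any level, and other examples were chosen after their values were seen. Some genes that this rule names are not reported here. Alternatives were other pseudocounts, filters, scalings and limits, and loci summed or placed on a strand. The arithmetic of the ratios was checked on simulated data without noise, which says nothing about the spread of these libraries. Python 3.11.15, pandas 2.3.3, NumPy 2.4.6, Biopython 1.88 and matplotlib 3.10.9 were used.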

Additional observations from a re-analysis of the deposited data

How the results depend on the processing

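IFITM3 stayed past 2-fold under each pseudocount, scaling and choice of loci tried. With a pseudocount of 5 FPKM the log2 ratio was within 2-fold for IFIH1 (0.76), MX1 (0.52), NLRC5 (0.68) and IFITM2 (-0.83). All genes then gave 142 higher and 136 lower, and interferon-stimulated genes 2 and 0. The other pathway lists gave 2 and 1, against 10 and 2 with the pseudocount of 1. These lists hold described genes and share others with the interferon-stimulated list, so nothing is read from their counts. With 0.1 FPKM, 614 of all genes were higher. A filter of 5 FPKM, under which fewer genes are compared, gave 5 higher and 1 lower interferon-stimulated gene and 5 higher pathway genes. Summing loci gave -0.91 for IFITM2, with 9 higher and 1 lower interferon-stimulated gene and 11 higher and 1 lower pathway gene. A 4-fold limit left 76 higher and 60 lower genes in all, 1 and 0 interferon-stimulated genes, and 1 and 0 pathway genes. Without the 6 genes, an alternative chosen after seeing the data, 4 interferon-stimulated genes were higher and 1 lower. Division by the median ratio turned the median of all genes to 0.0020. Where no cause is named, the cause was not tested. No paired analysis was possible because there is 1 library per group.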
